A study of Rattus norvegicus with 8 samples.

Results

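H2AK119ub1, a form of histone H2A that carries a single ubiquitin on a lysine near its C terminus, was mapped by ChIP-seq in rat sciatic nerve, and the regions described here are the wide enriched regions found after nerve transection at sites where the sham nerve had no enriched region nearby. A region qualified if it was at least 500 bp wide in the list of the injured nerve (1 day post injury, 1 dpi) and lay more than 1000 bp from every region of the sham list on the same chromosome. This gave 950 regions out of 99340 in the 1 dpi list (0.956%), and out of 4767 regions of at least 500 bp. They are called 1 dpi regions without a sham counterpart below. They were chosen by these measured values, region width at 1 dpi and distance to sham, so both are given as description and were not tested.

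All nerves came from male Sprague Dawley rats labelled as P28 and described as adult in the protocols. Injured samples were the part of the transected sciatic nerve distal to the cut, and sham samples were the contralateral nerve, whose limb had received a skin incision only. Both were taken at 1 day after surgery, carried no transgene, and were whole nerve, so that Schwann cells, fibroblasts, immune and vascular cells are all represented. Each condition had 2 ChIP libraries and 2 input libraries, from 2 rats, and each peak list was called on the combined libraries of a condition. Values per library were not analysed here, and the differences below describe 2 lists that cannot be set against the spread between animals. In bulk tissue, a change in the number of cells of a type and a change of the mark within cells cannot be told apart. Depth was 19714687 tags for sham and 76420053 for 1 dpi, 3.88 times as many. A 1 dpi peak needed 20 tags, which is 2.62 per 10000000 tags, and a sham peak 10, which is 5.07 per 10000000. The fragment length used was 150 bp in sham and 128 bp at 1 dpi, and at most 1 and 3 tags per bp were counted. Tags in peaks numbered 1918419 in sham and 4074753 at 1 dpi. Depth, these settings and condition therefore differ together between the lists, and their parts cannot be told apart. A site without a sham region is a site where none was called at the sham depth and settings.

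H2AK119ub1 is deposited by RING1 ubiquitin ligases within Polycomb repressive complex 1 (PRC1) and is removed by histone deubiquitinases such as the BAP1 complex. It often lies together with H3K27me3, the mark of PRC2, over silent developmental genes, where it can extend across kilobases and form wide or clustered regions in ChIP-seq. In peripheral nerve, Polycomb marks cover genes that Schwann cells induce when an axon is cut, and the study asked how these marks differ after injury. All coordinates refer to the rn5 assembly and are counted from 1. Genes and base sequence at these sites were not analysed here, because the gene tables used belong to another rat assembly.

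Most wide 1 dpi regions had a sham region at or near the same place. Of the 4767, 3073 overlapped a sham region by at least 1 bp, 744 had one within 1000 bp without overlap, and 950 had none, or 19.9%. For 1 dpi regions of any width the share without a sham region within 1000 bp was 61.8%. Since the rule is built on this contrast, nothing is read from the share itself. It declined with width. Among single calling windows of 151 bp, 69.3% had no sham region within 1000 bp (Wilson 95% interval 69.0 to 69.7%). Among regions of 500 to 749 bp it was 28.3% (26.7 to 30.0%), and among those of 1000 to 1499 bp it was 5.96% (4.39 to 8.05%). Of the 425 regions of at least 1500 bp, 3 had no sham counterpart, or 0.706% (0.240 to 2.06%). These intervals cover counting error only.

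**Figure D1:**
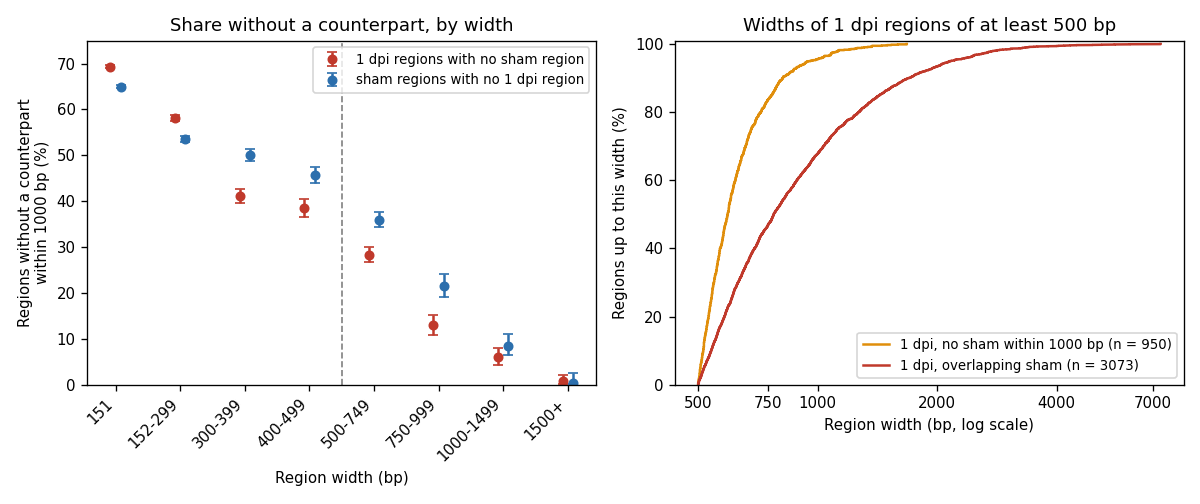
Left, percentage of regions with no region of the other list within 1000 bp (y axis) in each class of region width in bp (x axis), for the 1 dpi list (red) and the sham list (blue), with Wilson 95% intervals and a dashed line at 500 bp. Right, cumulative percentage of 1 dpi regions of at least 500 bp (y axis) up to a given width in bp on a log scale (x axis), for the 950 without a sham region within 1000 bp (orange) and the 3073 that overlap a sham region (red). Shares decline with width in both lists, from 69.3% to 0.706% at 1 dpi, and the orange curve ends at 1678 bp while the red one extends to 7320 bp.

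The same pattern held in the other direction. Of the 5351 sham regions of at least 500 bp, 1550 had no 1 dpi region within 1000 bp, or 29.0%, against 58.4% of sham regions of any width. By width the sham share was 36.0% at 500 to 749 bp (34.4 to 37.5%) and 21.5% at 750 to 999 bp (19.1 to 24.2%), above the 1 dpi shares of 28.3% and 12.9% (10.9 to 15.3%). At 1000 bp and more the intervals of the lists overlapped. Wide regions without a counterpart were thus more numerous in sham than at 1 dpi, in lists of unequal depth.

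The 1 dpi regions without a sham counterpart were narrow for wide regions. Their median width was 593.5 bp (95% interval of the median 585 to 600), their quartiles were 539 and 680 bp, and the widest measured 1678 bp. Together they covered 609.9 kb, or 14.7% of the bases in wide 1 dpi regions. The 3073 wide regions that overlapped sham had a median of 776 bp (764 to 793) and a maximum of 7320 bp. Only 4.42% of the regions without a counterpart reached 1000 bp (42 of 950), compared with 32.2% of the overlapping ones (991 of 3073). A wider region meets a sham region more easily, so the split itself favours this order, and nothing is read from it. The wide sham regions without a 1 dpi counterpart had almost the same widths, with a median of 591 bp (585 to 601) and a maximum of 1925 bp. The 744 wide 1 dpi regions within 1000 bp of sham but without overlap were about as narrow as the 950. Their median was 597 bp (586 to 615), and 6.18% of them reached 1000 bp (46 of 744).

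Near the limits of the rule the regions formed a continuum. There were 295 narrower than 550 bp, 6 of them at exactly 500 bp, and a further 432 regions of at least 450 but under 500 bp without a sham region within 1000 bp fell just short. The closest sham distances inside the limit were 1005, 1009 and 1009 bp, in regions of 579, 784 and 702 bp on chromosomes 7, 9 and 5. Just outside it, wide regions of 546, 503 and 632 bp on chromosomes 10, 6 and 5 lay 996, 996 and 993 bp from sham. In all, 175 of the 950 were within 1500 bp of a sham region, and 304 wide regions were excluded at distances above 500 and up to 1000 bp.

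The lists hold no peak height, so position in the 1 dpi list was used as a rough measure of rank. HOMER usually writes its peaks from the highest score down, but the list does not state its order, and whether position follows score could not be checked. Mean width declined along the list from 816 bp in the first 5% of regions to 151 bp in the last 5%. The regions without a sham counterpart began at row 438, had a median position of 4.85% of the list (4.60 to 5.05%), and ended at 22.2%. Wide regions that overlapped sham had a median position of 1.72% (1.65 to 1.79%). Those within 1000 bp of sham without overlap had a median position of 4.09% (3.885 to 4.335%), nearer to that of the regions without a counterpart. Of the 974 wide regions in the first 1% of the list, 16 had no sham counterpart, or 1.64% (1.01 to 2.65%). The share was 9.21% between 1 and 2.5% of the list, 25.1% between 2.5 and 5%, and 43.1% (39.9 to 46.4%) between 5 and 10%.

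The difference in position was also present within width classes. Among regions of 500 to 599 bp, the 505 without a counterpart had a median position of 6.18% (5.94 to 6.46%) and the 725 that overlapped sham 3.76% (3.54 to 3.97%). Among those of 750 to 999 bp the medians were 2.56% (2.32 to 2.90%) for 114 regions and 1.56% (1.49 to 1.61%) for 645. At the same position, the share without a counterpart showed no steady decline with width. In the first 2.5% of the list it was 9.60% at 500 to 599 bp, 7.05% at 600 to 749 bp and 8.05% at 750 to 999 bp, with intervals that overlapped. Between 2.5 and 5% of the list it was 21.5%, 27.7% and 27.5%, and between 5 and 10% it was 40.7%, 51.8% and 85.7%, the last from 7 regions only.

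The 10 widest regions without a sham counterpart were on chromosomes X, 10, 11, 19, 4 and 3. The widest measured 1678 bp on chromosome X (111469567 to 111471244). A single sham window of 151 bp lay 1328 bp to its left, and the next sham region to its right was 134938 bp away. On chromosome 10 a region of 1593 bp (72037725 to 72039317) had its flanking sham regions at 7816 and 7793 bp. It belonged to a run of 25 1 dpi regions spanning 34374 bp, and a further region of 527 bp without a sham counterpart lay 282 bp beside it.

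A region of 1534 bp on chromosome 11 (77279275 to 77280808) lay 1047 bp from a single sham window, close to the limit of the rule. The second region on chromosome 10, 1495 bp wide (66677203 to 66678697), was the most isolated of the 10 from sham, with the nearest sham regions at 21708 and 16610 bp and 4 other 1 dpi regions within 10 kb. The region of 1451 bp on chromosome 19 (65034818 to 65036268) had a sham region of 696 bp at a distance of 3787 bp. For 6 of the 10 the nearest sham region was a single window, and this was the only one of the 10 whose nearest sham region reached 500 bp.

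Next in width were regions of 1372 bp on chromosome 4 (197319158 to 197320529), 1370 bp on chromosome 11 (36871724 to 36873093) and 1367 bp on chromosome 19 (54730173 to 54731539). The first of these sat within a run of 90 1 dpi regions over 117360 bp, and had 14 other 1 dpi regions and 4 sham regions within 10 kb. A second region on chromosome 4, 1309 bp wide (197135315 to 197136623), was also in a long run, with 65 1 dpi regions over 93805 bp. The region of 1336 bp on chromosome 3 (176819401 to 176820736) was the highest in the list of all 950, at row 438. The next 4 in list order were also among the 10 widest, namely the regions of 1593, 1372, 1451 and 1367 bp.

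**Figure D2:**
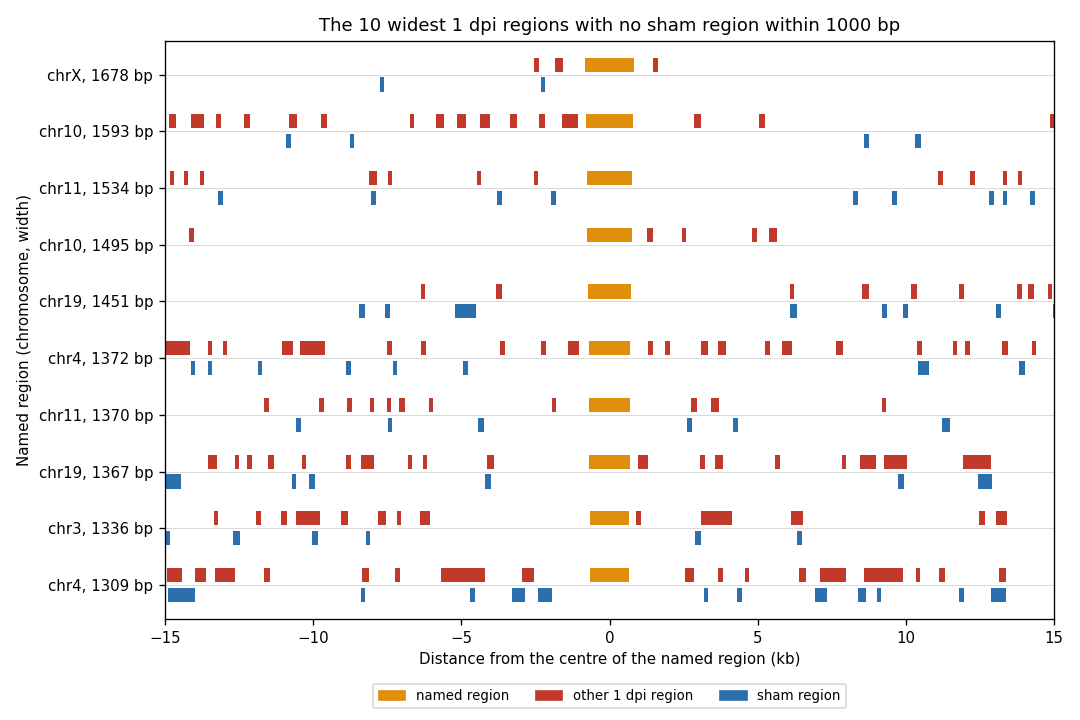
Map of the 10 widest 1 dpi regions without a sham region within 1000 bp, each row centred on a named region (orange) with its chromosome and width, other 1 dpi regions in red and sham regions in blue below. The x axis gives the distance from the centre of the named region in kb. Sham regions appear within 15 kb in 9 of the 10 rows and are absent from the row of the 1495 bp region on chromosome 10.

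Sham regions were found within 5 and 10 kb of these sites about as often as for the 1 dpi list in general. The median distance to the nearest one was 2880 bp (2666 to 3203 bp). A sham region lay within 5 kb of 667 of the 950, or 70.2% (67.2 to 73.0%), and within 10 kb of 821, or 86.4% (84.1 to 88.4%). Over all 1 dpi regions, including those with a sham region within 1000 bp, these shares were 70.7% and 84.0%. Within 2000 bp the shares differed, 32.2% for these sites and 51.1% over all 1 dpi regions, as the rule allows none within 1000 bp. For 504 there was a sham region within 10 kb on each side, and for 317 on 1 side only. Narrower 1 dpi regions that also lacked a sham region within 1000 bp were farther away, with a median of 4675 bp (4622 to 4730) and 52.3% within 5 kb (52.0 to 52.7%, n = 60477). The nearest sham region was a single window in 57.8% of cases (54.6 to 60.9%), against 60.7% of all sham regions, and it was at least 500 bp wide in 7.26% (5.78 to 9.09%), against 6.52% of all sham regions.

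Membership in long domains was compared next. A long domain was defined as a run of regions of a list, each within 5 kb of the next, that spanned at least 10 kb. Long 1 dpi domains held 540 of the 950, or 56.8% (53.7 to 60.0%), and long sham domains held 56, or 5.89% (4.57 to 7.58%). Of the wide 1 dpi regions that overlapped sham, 69.2% (67.6 to 70.8%) were in long 1 dpi domains and 52.8% (51.1 to 54.6%) in long sham domains. For the 744 within 1000 bp of sham without overlap, these shares were 67.1% and 37.5%. At 500 to 599 bp, long 1 dpi domains held 53.7% (49.3 to 58.0%) of sites without a counterpart, against 62.5% (58.9 to 65.9%) of overlapping regions. From 600 to 1499 bp the intervals overlapped in each class. At 750 to 999 bp the shares were 65.8% (56.7 to 73.9%) and 68.4% (64.7 to 71.8%). Part of the gap in long sham domains is built in, since a member cannot have a sham region within 1000 bp. Over the whole 1 dpi list, 35.7% of regions were in long 1 dpi domains and 11.9% in long sham domains. Narrower 1 dpi regions under the same rule on distance were in long 1 dpi domains in 27.8% (27.4 to 28.1%) and in long sham domains in 2.69% (2.57 to 2.83%), both below the wide sites.

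Other 1 dpi regions were sparser around these sites than around overlapping regions. The median distance to the nearest other 1 dpi region was 1032 bp (941 to 1120), against 478 bp (463 to 495) for wide regions that overlapped sham. The same order was found within each width class, for instance 1200 bp (1046 to 1344) against 588 bp (538 to 642) at 500 to 599 bp. For wide regions within 1000 bp of sham without overlap, the median distance over all widths was 584.5 bp (534 to 659). A median of 6 other 1 dpi regions and 3 sham regions were found within 10 kb of the sites without a counterpart, against 8 and 7 for overlapping regions. The sham numbers are partly set by the rule, which allows none within 1000 bp of a site, whereas an overlapping region has at least 1. In the flanks from 1 to 5 kb, 1 dpi regions covered 8.86% of bases and sham regions 4.41%, a ratio of 2.01. Around overlapping regions the same flanks were covered to 18.7% and 13.2%, a ratio of 1.42. Between 10 and 20 kb the values were 6.59% and 3.54%, a ratio of 1.86, against 7.90% and 5.37%, a ratio of 1.47. Splitting the groups by a sham call favours a higher ratio at sites without one. The ratio over the whole lists was not computed, so nothing is read from these ratios.

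**Figure D3:**
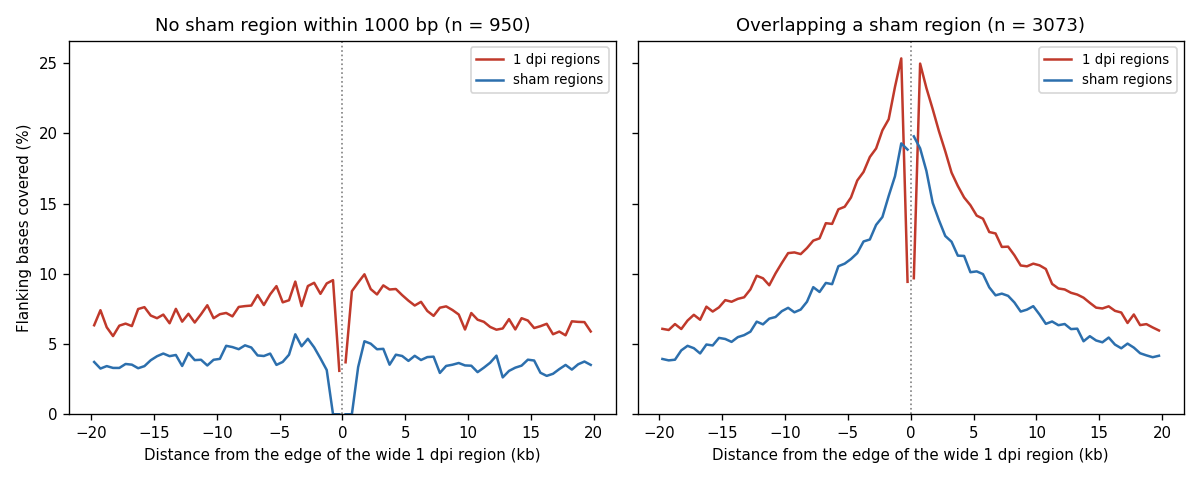
Percentage of flanking bases covered by 1 dpi regions (red) and sham regions (blue) on the y axis, in steps of 500 bp, against distance in kb from the edge of wide 1 dpi regions on the x axis, for the 950 without a sham region within 1000 bp (left) and the 3073 that overlap one (right). The sham curve is 0 within 1 kb on the left because the rule requires it. The red curve dips next to the edge in both panels. No other 1 dpi region lay closer than 219 bp, and the cause of the dip was not tested. Coverage changes little with distance on the left, from 8.86% to 6.59% for 1 dpi, and declines on the right from 18.7% to 7.90%.

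Regions without a counterpart differed between the lists in how isolated they were. Only 43 of the 950 had no other 1 dpi region within 10 kb, or 4.53% (3.38 to 6.04%), against 13.6% of all 1 dpi regions. Of the 1550 wide sham regions without a 1 dpi counterpart, 385 had no other sham region within 10 kb, or 24.8% (22.7 to 27.0%). Their median distance to the nearest region of the other list was 4538 bp (4150 to 5021 bp) compared with 2880 bp. They lay in long domains of their own list in 13.5% of cases (11.9 to 15.3%), compared with 56.8%. The lists differed in the same order among wide regions that overlapped the other list. Of these, 7.08% in sham (6.21 to 8.07%) and 2.02% at 1 dpi (1.58 to 2.58%) had no other region of their list within 10 kb. In long domains of their own list lay 46.4% and 69.2%. Shares over all sham regions were not computed. Regions of the 1 dpi list lie closer together in general, and the part of list density in these differences was not tested.

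At the other extreme, 9 of the 950 had no sham region within 50 kb. The farthest was a region of 703 bp on chromosome X (10996925 to 10997627), with sham regions at 516896 and 4096443 bp and no other 1 dpi region for 1041120 bp. It was followed by regions of 609 bp on chromosome 1 (107916681 to 107917289), 123902 bp from sham, and of 501 bp on chromosome 7 (143144012 to 143144512), 100008 bp from sham. The 4th and 5th were both on chromosome 20, with 571 bp (42346537 to 42347107) and 582 bp (47285525 to 47286106), at 89452 and 88799 bp. None of these 5 exceeded 703 bp, and their list positions were between 4.97 and 6.32%. Sham regions were sparsest on chromosome X, with 2.65 per Mb against 17.7 per Mb on chromosome 2, the next lowest.

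By chromosome, the number of regions without a sham counterpart ranged from 6 on X to 107 on chromosome 3, and their density from 0.0389 per Mb on X to 0.892 per Mb on chromosome 10, where 100 were found. Density of all wide 1 dpi regions had the same extremes, 0.305 and 4.42 per Mb. As a share of the wide 1 dpi regions, chromosomes 18 and 11 were highest, with 37 of 118, or 31.4% (23.7 to 40.2%), and 39 of 125, or 31.2% (23.7 to 39.8%). Chromosomes 14 and 2 were lowest, with 16 of 144, or 11.1% (6.96 to 17.3%), and 24 of 203, or 11.8% (8.07 to 17.0%). The intervals of chromosomes 1 and 9 also lay below the share over the genome, 19.9%, and that of chromosome 13 above it, whereas the other 14 included it. Of the 37 on chromosome 18, 12 lay in 1 window of 1 Mb, described below. Without this window the share was 23.8% (16.7 to 32.8%), and this interval includes the share over the genome. The reduced share still lies within the interval found with the window. Leaving out the window with most sites must lower the share, and no window was left out on other chromosomes, so the reduced share is not ranked among them. On chromosome 10, which had the highest density, the share was 20.2% (16.9 to 24.0%).

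**Figure D4:**
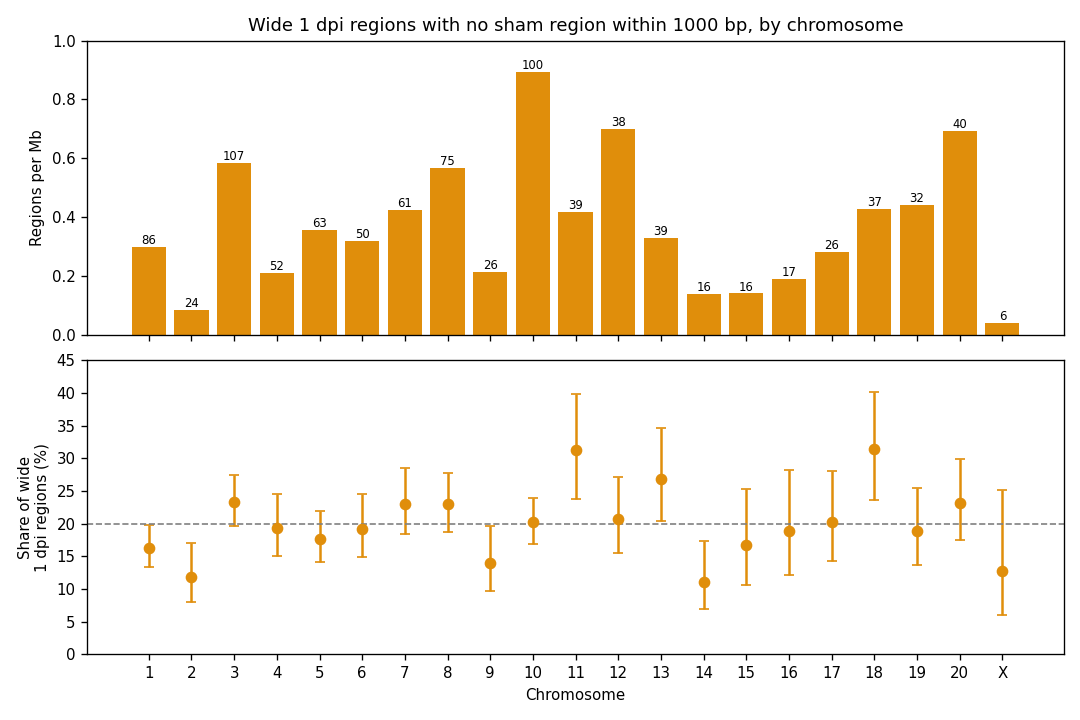
Upper panel, wide 1 dpi regions without a sham region within 1000 bp per Mb of chromosome (bars, y axis), with their number above each bar. Lower panel, the same regions as a percentage of all wide 1 dpi regions of the chromosome (points) with Wilson 95% intervals and a dashed line at the share over the genome, 19.9%. Density is highest on chromosome 10 (0.892 per Mb), whereas the share is highest on chromosomes 18 (31.4%, or 23.8% without 1 window of 1 Mb) and 11 (31.2%).

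Most sites stood alone. Of the 950, 127 had another such region within 10 kb, or 13.4% (11.3 to 15.7%), and the median distance between them was 154150 bp. Joined within 10 kb, they formed 823 single sites, 50 pairs, 5 groups of 3 and 3 groups of 4. Wide regions that overlapped sham had another of their kind within 10 kb in 53.4% (51.6 to 55.1%), in a set that is more numerous. In the 744 wide 1 dpi regions within 1000 bp of sham without overlap, a set closer in size, the share was 15.5% (13.0 to 18.2%). In the 1550 wide sham regions without a 1 dpi counterpart it was 6.07% (4.98 to 7.37%). Few neighbours of the same kind were thus not particular to these sites. The tightest group of 4 was on chromosome 7 (75671913 to 75679872). Its members measured 1034, 601, 990 and 664 bp, and no sham region lay between them. A group on chromosome 17 (14636276 to 14655396) had members of 561, 527, 501 and 676 bp and 1 single sham window between them. The third, on chromosome 6 (53159834 to 53181959), had members of 596, 591, 696 and 511 bp among 13 1 dpi regions covering 4782 bp, with no sham region.

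The stretch from the sham region on the left of a site to the sham region on its right gives the length over which sham had no call. The 950 sites fell into 888 such stretches, of which 52 held at least 2 of them. Median length was 13160 bp (12365 to 14556 bp), and a median of 4 1 dpi regions lay in each. In 56 stretches the site was the only 1 dpi region, and in 73 there were 10 or more. The stretch with most 1 dpi bases was on chromosome 18 (49193218 to 49288380), where 34 1 dpi regions covered 7954 bp of 95163 bp.

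Next came a stretch on chromosome 3 (11921390 to 12021110) with 29 1 dpi regions covering 7463 bp, 3 of them sites of the kind described, of 579, 752 and 737 bp. The third was again on chromosome 18 (49509442 to 49563995), with 23 regions covering 7215 bp, 4 of them without a sham counterpart by the rule, of 634, 555, 806 and 887 bp. On chromosome 6 (53156602 to 53203958) 24 regions covered 6722 bp and included the group of 4 described above. The fifth, on chromosome 12 (14459345 to 14607406), was the longest of these at 148062 bp and had 21 regions covering 5178 bp.

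Both chromosome 18 stretches belonged to a single window of 1 Mb (49000001 to 50000000), which held 12 of the 950 sites, more than any other window of the 524 that held one. This window was singled out after the values were seen. Of its 13 wide 1 dpi regions, 12 had no sham region within 1000 bp, and the remaining one lay 805 bp from sham. There was no sham region of at least 500 bp. The widest sham region measured 302 bp, and 26 of the 30 sham regions were single windows. In all, 164 1 dpi regions covered 38724 bp and 30 sham regions covered 4817 bp, ratios of 5.47 in number and 8.04 in bases, against a ratio in number of 1.21 between the whole lists. The ratio in bases between the whole lists was not computed. Picking the window with most such sites favours few sham regions, so high ratios are partly set by the choice. The 12 sites were spread over 518.5 kb, and none was wider than 887 bp. Without this window, 25 of 105 wide 1 dpi regions on chromosome 18 had no sham counterpart.

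**Figure D5:**
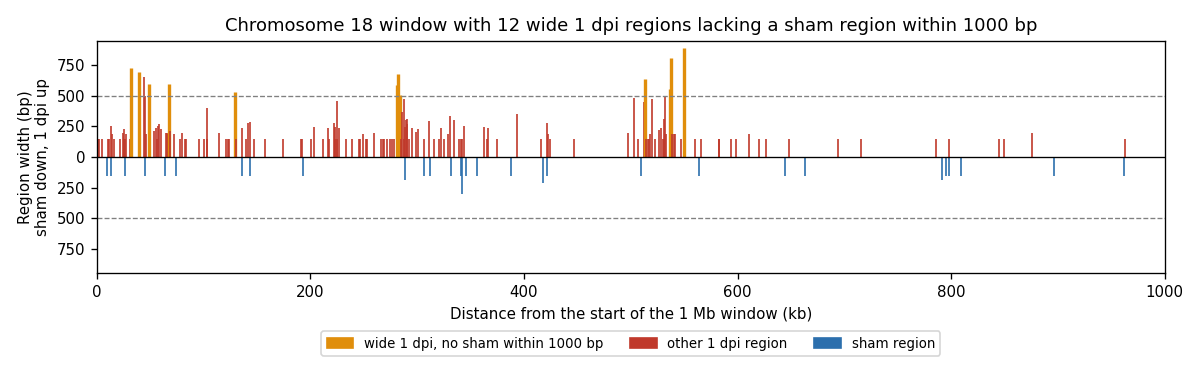
Regions in the 1 Mb window of chromosome 18 with most sites, placed by distance from the window start in kb (x axis), with region width in bp on the y axis, 1 dpi regions upward and sham regions downward; dashed lines mark 500 bp. The 12 wide 1 dpi regions without a sham region within 1000 bp (orange) lie between 32002 and 550454 bp from the window start, and the sham regions (blue) do not exceed 302 bp.

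Other windows with many sites were less one-sided. A window on chromosome 8 (66000001 to 67000000) held 10 sites among 34 wide 1 dpi regions, with 376 1 dpi and 201 sham regions in all, 9 of the latter at least 500 bp wide. On chromosome 3 (12000001 to 13000000) there were 8 sites among 17 wide regions, with 186 1 dpi and 96 sham regions. Of the 3 windows with 7 sites, the one on chromosome 19 (54000001 to 55000000) had the fewest sham regions for its 1 dpi regions, 35 against 140, and it contains the region of 1367 bp named above. In 308 of the 524 windows there was a single site.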

How the data were processed

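The deposited data were 2 peak lists, one for each condition. Per the methods of the study and the labels, the authors digested nerve chromatin with micrococcal nuclease, aligned reads with Bowtie to rn5 and called regions with HOMER against input. Per the file headers, windows of 150 bp set at least 370 bp apart were stitched into longer regions, with 4-fold enrichment over input and over the surrounding 10000 bp and a false discovery rate of 0.001. At most 1 tag per bp was counted in sham and 3 at 1 dpi. Every score in the deposited lists is 1, so no peak height could be used. Versions of Bowtie and HOMER are not given in the sources used here.

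Distances were counted as the bases between region edges. Gaps, merging and overlap were computed in Python 3.11.15 with numpy 2.4.6, pandas 2.3.3 and scipy 1.17.1, and the functions were tested on simulated data. Shares have Wilson 95% intervals and medians have binomial order-statistic 95% intervals, which cover counting error only, since regions of a list are not replicates of a condition. No test between conditions was made. Densities per Mb used the last region end of either list as the chromosome length. The members, the measures and the named regions (the 10 widest, the 5 listed first, the 5 farthest from sham, the 3 groups with most members, the 5 sham-free stretches with most 1 dpi bases, and those at each limit) were chosen with earlier results of these data known. Alternatives changed the minimum width, the distance to sham, the lists entered and the joining of regions. No gene is named, because no annotation of rn5 was used.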

Additional observations from a re-analysis of the deposited data

How the results depend on the processing

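For 7 results, 8 alternatives gave 56 values, of which 14 stayed within 1.5 times the count or within the interval of the reported value and 42 moved beyond it. The sites are defined by the limits on width and distance, so many values moved by construction. The share in long domains moved under all 8 alternatives, which gave 19.6% to 61.9%. A minimum width of 400 bp gave 1948 sites, 26.5% of wide 1 dpi regions, a median width of 497 bp, 52.3% in long domains, 18.3% with another site within 10 kb and a median list position of 6.77%. A minimum of 1000 bp gave 42 sites, 3.89% of wide regions, a median width of 1121 bp, a median distance to sham of 2260 bp, 61.9% in long domains, 0% with another site within 10 kb and a position of 1.49%. Requiring only that no base be shared with sham gave 1694 sites, 35.5%, a distance of 1278 bp, 61.3% in long domains, 21.8% with another site near and a position of 4.51%. A distance of over 5000 bp gave 283 sites, 5.94%, a width of 579 bp, a distance of 9243 bp, 35.3% in long domains, 10.2% with another site near and a position of 5.22%. Counting only sham regions wider than a single window gave 1635 sites, 34.3%, a width of 601 bp, a distance of 5447 bp, 60.2% in long domains, 21.5% with another site near and a position of 4.41%. Joining 1 dpi regions within 1000 bp before the width rule gave 6407 sites, 40.2%, a width of 990 bp, a distance of 3669 bp, 42% in long domains, 28.9% with another site near and a position of 27.98%. Using the first 25% of the 1 dpi list, or as many 1 dpi as sham regions, left the same 950 sites, since all are listed earlier. Under these alternatives only the share in long domains could move, and it was 19.6% and 50.3%. The value for chromosome 18 without its densest 1 Mb window was chosen after seeing the data. It fell from 31.4% to 23.8% (16.7 to 32.8%), so that its interval no longer lay above the share over the genome, 19.9%.

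No paired analysis was possible because the replicates of a condition were combined before peak calling, and replicates could not be left out in turn either. Depth limits every statement on absence from sham, since the 1 dpi list had 3.88 times as many tags.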
